A study of Rattus norvegicus with 6 samples.

Results

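HOX genes were identified in the deposited gene table of rat bone marrow stromal cells as every row whose symbol is Hoxa, Hoxb, Hoxc or Hoxd followed by a number. This rule took 39 of 23091 genes: 11 Hoxa, 10 Hoxb, 9 Hoxc and 9 Hoxd genes. A further row with the symbol HOXA3 in capitals is described in the table as an oocyte specific homeobox 5-like gene, had 0 counts and was left out, and antisense rows do not match the rule. The measurements are bulk polyadenylated RNA sequencing of 6 samples of marrow mesenchymal stem cells, all of wild-type genotype and all kept in neural differentiation medium for 7 days. In 3 samples the medium held CYSP, a treatment that the labels name only by these letters, and in the 3 samples named CK it held the solvent DMSO. The series concerns neuron-like cells made from such stem cells, and the comparison asks which genes differ between treated and solvent-treated cells after that time. The labels do not give the animals' strain, age or sex and do not say whether the 3 samples of a group are separate cultures, so every p-value here measures only the spread among these 6 samples, and that spread may be technical.

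HOX genes encode homeodomain transcription factors that tell cells of an embryo where they lie along the body and limb axes. In mammals they stand in 4 clusters, Hoxa to Hoxd, and genes in matching places of different clusters are called paralogs and share a number. Low numbers are switched on first and nearest the head, and high numbers later and nearer the tail or the tip of a limb, an order known as colinearity. Adult fibroblasts and stromal cells keep much of the HOX pattern of the site they came from, which is why the pattern is used as a record of position. HOX proteins bind DNA together with PBX and MEIS cofactors, Polycomb complexes keep unused HOX genes silent, trithorax complexes keep used ones active, and retinoic acid switches on genes of low number.

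The libraries held 15060933 to 17244700 counts. A gene listed at 0 could have up to 3 counts, which is 0.169 to 0.205 CPM (counts scaled to the TMM-adjusted library total). Limits and intervals from counts cover counting error only. The labelled cell type was checked against 10 marrow stromal markers, all of which had enough counts to be tested. Of these, 6 were higher and 3 were lower in CYSP. Their summed level lay between 13172 and 14055 CPM in CYSP and between 44512 and 46334 CPM in CK, and without Col1a1, a collagen, between 3954 and 4012 CPM in CYSP and between 4540 and 4573 CPM in CK. Among the higher ones, Cd44 was at 686 CPM in CYSP and 338 CPM in CK. Thy1, also higher, was at 661 ± 23.2 CPM in CYSP and 562 ± 6.78 CPM in CK (SD, n = 3 each). Col1a1, among the 3 lower ones, was at 9668 ± 436 CPM in CYSP and 40665 ± 960 CPM in CK, a log2 fold change of -2.07. Macrophage and leukocyte markers were present too: 9 of 9 were tested, 8 were lower in CYSP, and Cd74 was at 0 in 2 of the 3 CYSP samples. Their sum lay between 502 and 508 CPM in CYSP and between 1670 and 1896 CPM in CK. Of 7 neuronal markers 3 could be tested and all 3 passed: Tubb3 was higher in CYSP, at 37.8 CPM against 8.67 CPM in CK, while Map2 was lower, with a log2 fold change of -1.65, and so was Dcx, with 3 counts in CYSP and 79 in CK. Cd74 and Dcx passed the filter only through CK, where they are high, so their falls are descriptions. Stmn2 had 39 counts in CYSP and 0 in CK, Syt1 had 36 in CYSP and 1 in CK, and Rbfox3, which marks mature neurons, had 0 counts in every sample. Of all genes tested, 76.1% passed an adjusted p under 0.05, so the counts of markers called describe these markers only. The part of cell types other than stromal cells in the HOX differences was not tested. In bulk RNA, fewer cells of a type and less RNA per cell cannot be told apart.

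The cells of both groups carried a HOX pattern weighted to the 10th paralogs of the Hoxa and Hoxc clusters, with the Hoxb cluster almost without reads. In FPKM, the deposited unit per kilobase of transcript, Hoxa10 was the most abundant member, at 15.2 ± 1.45 FPKM in CYSP and 25.5 ± 2.28 FPKM in CK (SD, n = 3 each). Hoxa10 takes part in patterning the lumbar body and the limbs in mouse. Hoxc10, its paralog in the Hoxc cluster, came next at 11.3 ± 0.225 FPKM in CYSP and 11.1 ± 0.79 FPKM in CK. These 2 members were the only ones at a mean of 10 FPKM or more in either group, and in each group their ranges over samples overlapped neither each other nor that of any lower-ranked member.

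Below them the order of levels was not the same in the 2 groups. In CYSP the next members by mean FPKM were Hoxd8 at 5.32, Hoxc6 at 3.88, Hoxa11 at 3.77, Hoxa5 at 3.59 and Hoxa9 at 3.35 FPKM. From Hoxc6 to Hoxa9 each of these overlapped the next in range, so their order is not resolved by 3 samples. In CK the next members were Hoxa11 at 5.24, Hoxd8 at 5.15, Hoxa9 at 4.42, Hoxc9 at 3.07 and Hoxa5 at 3.03 FPKM. There Hoxa11 and Hoxd8 overlapped in range, as did Hoxc9 and Hoxa5, while Hoxa9 stood apart from both neighbours. A mean of at least 1 FPKM was reached by 12 members in CYSP, 13 in CK and 11 in both.

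**Figure D1:**
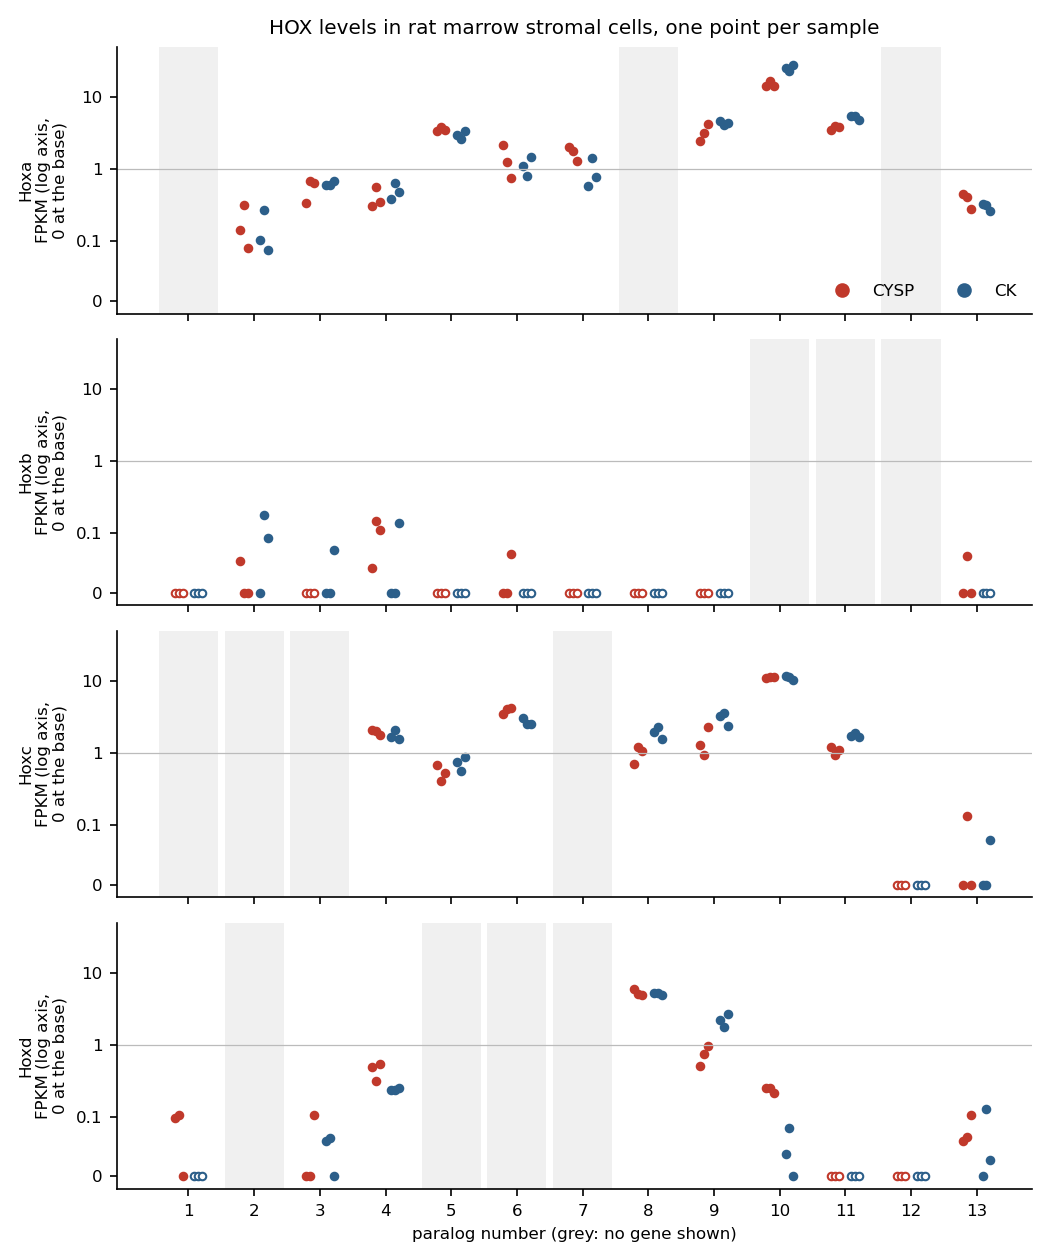
Level of 38 HOX genes in FPKM (log axis, with 0 drawn at the base) against paralog number, in a panel for each cluster, with 1 point per sample, CYSP in red left of CK in blue, and open points where all 3 samples of a group had 0 counts. Hoxa10 and Hoxc10 stand highest, the Hoxb genes lie at or near 0, and Hoxd9 and Hoxa10 are lower in CYSP than in CK in every sample.

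Summed over all 39 members, the HOX level was 59.3 ± 1.88 FPKM in CYSP and 73.7 ± 1.38 FPKM in CK (SD, n = 3 each). On the TMM-scaled CPM scale of the tests the gap was smaller, with 124 ± 2.06 CPM in CYSP and 139 ± 1.26 CPM in CK. Hoxa10 alone, at 27.5 ± 1.84 CPM in CYSP and 42.6 ± 2.14 CPM in CK, differed by about as much as that whole sum. In FPKM, unlike on the CPM scale, the members without Hoxa10 summed to less in CYSP, at 44.1 ± 0.849 FPKM against 48.2 ± 1.69 FPKM in CK. The members with paralog numbers 9 to 13 held most of the difference, with 37.7 ± 2.16 FPKM in CYSP and 53.7 ± 1.67 FPKM in CK. No CYSP sample reached the lowest CK sample in that sum: the range was 35.2 to 39.0 FPKM in CYSP and 51.8 to 55.0 FPKM in CK. Members 5 to 8 summed to slightly more in CYSP, with 17.5 ± 1.14 FPKM in CYSP and 15.6 ± 0.1 FPKM in CK. Members 1 to 4 summed to 4.12 ± 0.454 FPKM in CYSP and 4.38 ± 0.366 FPKM in CK, and their ranges overlapped. On the CPM scale paralogs 9 to 13 summed to 71.8 ± 2.92 CPM in CYSP and 93.9 ± 1.46 CPM in CK. Paralogs 5 to 8 summed to 43.3 ± 2.01 CPM in CYSP and 36.6 ± 0.292 CPM in CK. Paralogs 1 to 4 summed to slightly more in CYSP on that scale, 8.91 ± 0.796 CPM against 8.52 ± 0.668 CPM in CK, and overlapped.

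As a share of the HOX sum, paralogs 9 to 13 made up 63.6% in CYSP (range 61.2 to 65.9%) and 72.8% in CK (range 71.8 to 73.4%). Hoxa10 alone made up 25.7% of the HOX sum in CYSP and 34.6% in CK. Without Hoxa10, paralogs 9 to 13 still summed to less in CYSP, at 22.5 ± 1.92 FPKM, than in CK, at 28.2 ± 1.52 FPKM. By cluster, the Hoxa genes summed to 30.9 ± 2.19 FPKM in CYSP and 42.7 ± 2.36 FPKM in CK without overlap. The Hoxc sums, 21.3 ± 1.01 FPKM in CYSP and 23.1 ± 1.86 FPKM in CK, overlapped. On the CPM scale the Hoxc sum was slightly higher in CYSP, at 47.4 ± 1.26 CPM against 46.1 ± 3.15 CPM in CK, again with overlap. For Hoxd the sums were 6.93 ± 0.434 FPKM in CYSP and 7.73 ± 0.15 FPKM in CK, without overlap, but on the CPM scale they overlapped, at 13.4 to 15.4 CPM in CYSP and 14.5 to 14.9 CPM in CK. These sums are descriptions, for which no p is given.

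**Figure D2:**
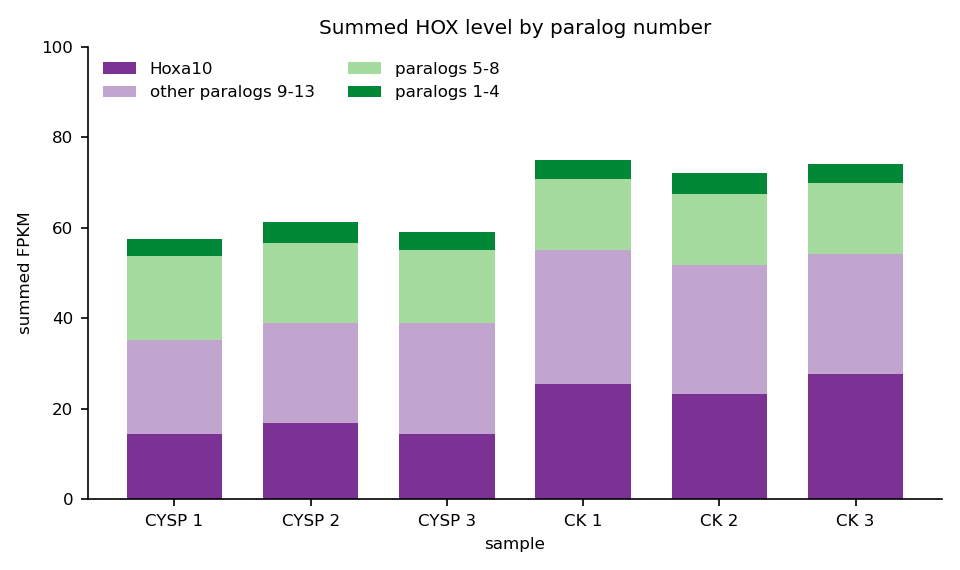
Summed FPKM of the HOX members in each sample (bars from 0, the 3 CYSP samples left of the 3 CK samples), split into Hoxa10, the other paralogs 9 to 13, paralogs 5 to 8 and paralogs 1 to 4. The dark segment of Hoxa10 and the segment of the other paralogs 9 to 13 are shorter in the CYSP samples, while the segment of paralogs 5 to 8 is slightly taller.

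Of the 39 members, 19 had enough counts to be tested on the deposited counts, and 11 of the 19 differed between the groups at an adjusted p under 0.05 (edgeR's quasi-likelihood test, adjusted over 12623 genes after Benjamini and Hochberg). Over all genes, 76.1% of those tested passed that threshold, so the 57.9% seen among HOX members was not above the background and describes these members only. Among genes in the same range of mean CPM as the tested members, the background was 70.1%. Of the 11, 4 were higher and 7 were lower in CYSP, while 38.2% of all tested genes were higher and 37.8% were lower. The median log2 fold change of the tested members was -0.22, beside 0.00 over all genes tested, and the median absolute log2 fold change was 0.39, beside 0.53. In 9 of the 19 members the 2 groups did not overlap, a property shared by 77.0% of all genes tested. Hoxd9 was among the 2 members that passed with an absolute log2 fold change of 1 or more, as 27.8% of all genes tested did.

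Counted by paralog number, the lower members lay mostly at the high-numbered ends of the clusters. Of 7 tested members with numbers 9 to 13, 5 were lower in CYSP and none was higher, with a median log2 fold change of -0.62. Of 7 tested members with numbers 5 to 8, 3 were higher and 1 was lower, with a median of 0.33. Of 5 tested members with numbers 1 to 4, 1 was higher and 1 was lower, with a median of -0.10. By cluster, 2 Hoxa genes were higher and 3 were lower of 9 tested, 1 Hoxc gene was higher and 3 were lower of 7, and 1 Hoxd gene was higher and 1 was lower of 3. The difference between the groups of paralogs was not tested. The count of 4 higher members was not stable: it was 2 by the DESeq2 Wald test, in which Hoxa5 and Hoxd4 were no longer called.

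**Figure D3:**
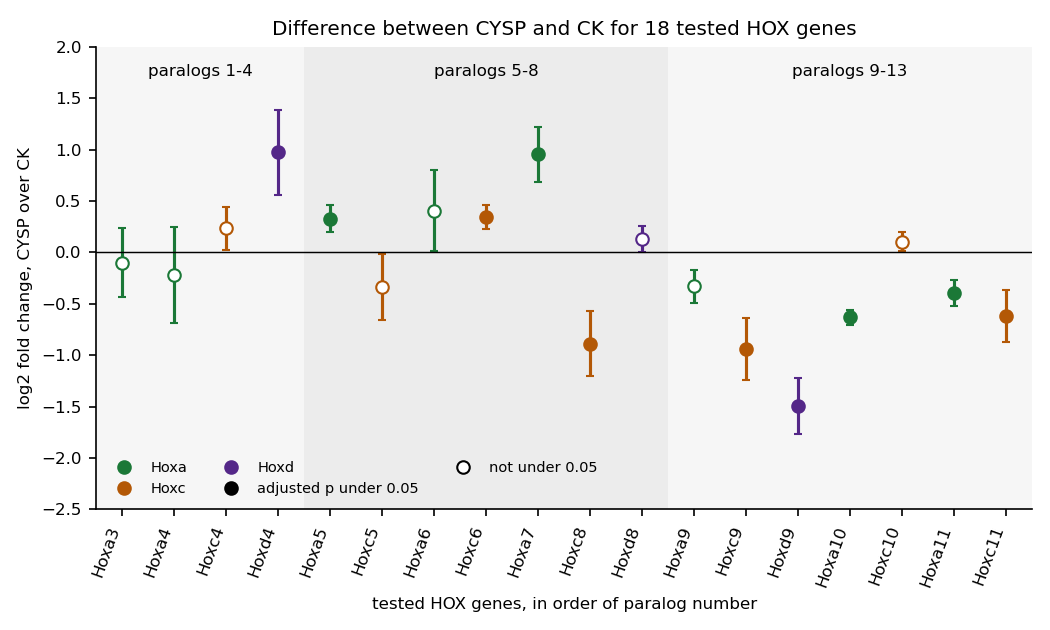
Log2 fold change of CYSP over CK for 18 of the 19 tested HOX genes in order of paralog number, with bars of 1 standard error, coloured by cluster and filled where the adjusted p was under 0.05. All 5 filled points among paralogs 9 to 13 lie below 0, and the lowest is Hoxd9 at -1.50, while 3 of the 4 filled points among paralogs 5 to 8 lie above 0.

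Hoxd9, a paralog expressed in the limb bud and the posterior body axis of the mouse embryo, had the steepest fall. Its level was 0.972, 1.42 and 1.84 CPM in the 3 CYSP samples, against 3.95, 3.14 and 4.77 CPM in the 3 CK samples. Every CYSP sample lay well under the lowest CK sample. Its log2 fold change was -1.50 ± 0.27 (SE, n = 3 each), with an adjusted p of 9.18e-07 by edgeR's quasi-likelihood test. Hoxd9 kept its call in 19 of 19 alternative settings, with log2 fold changes between -1.73 and -0.88. Hoxd8, the gene next to it in the cluster, did not pass the test: it had 12.3, 10.3 and 9.97 CPM in CYSP, against 10.2, 10.2 and 9.36 CPM in CK. Hoxd8 had a log2 fold change of 0.13, with a 95% interval from -0.11 to 0.38.

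The ratio of Hoxd9 to Hoxd8 counts, which does not depend on how samples are scaled, averaged 0.134 ± 0.053 in CYSP and 0.402 ± 0.101 in CK (SD, n = 3 each). The highest CYSP ratio was 0.185 and the lowest CK ratio was 0.309. An exact two-sided permutation test gave p = 0.1, which is the smallest p that 3 against 3 samples allow. This ratio, and the ratio of Hoxa10 to Hoxc10 given below, were chosen after the values had been seen.

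Hoxa10 fell to 27.03, 29.5 and 25.9 CPM in CYSP, against 41.9, 40.9 and 44.99 CPM in CK. The 3 CYSP samples lay close together and far under the 3 CK samples. Its log2 fold change was -0.63 ± 0.0718 (SE, n = 3 each) with an adjusted p of 1.27e-12, the smallest among the members, and it kept its call in every alternative setting but the demand for an absolute log2 fold change of 1. Hoxc10, which in mouse takes part in hindlimb and lumbar motor neuron identity, did not pass: it had 22.4, 23.0 and 23.1 CPM in CYSP, against 22.6, 21.4 and 19.6 CPM in CK. The samples of both groups overlapped, and the 95% interval of its log2 fold change ran from -0.07 to 0.28. The ratio of Hoxa10 to Hoxc10 counts averaged 1.21 ± 0.0805 in CYSP, with a highest value of 1.29, and 2.02 ± 0.242 in CK, with a lowest value of 1.86. The exact two-sided permutation test again gave p = 0.1, the smallest possible here.

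The 250 bases before the annotated start of Hoxa10, Hoxd9 and Hoxd8 are shown because Hoxa10 and Hoxd9 carry the clearest differences and Hoxd8, next to Hoxd9, did not pass the test. That of Hoxa7 is shown beside them as a member that was higher in CYSP. RefSeq gives 2 starts for Hoxa10 and 1 for each of the others. On the GRCr8 build the windows are chr4:82665923-82666172 on the minus strand and chr4:82671491-82671740 on the minus strand for Hoxa10, chr3:80007756-80008005 on the plus strand for Hoxd9, chr3:80014973-80015222 on the plus strand for Hoxd8 and chr4:82648242-82648491 on the minus strand for Hoxa7. Each is printed 5′ to 3′ along its gene, and capitals mark the CG dinucleotides, the sites that DNA methylation uses and that crowd in CpG islands.
Hoxa10, start 1: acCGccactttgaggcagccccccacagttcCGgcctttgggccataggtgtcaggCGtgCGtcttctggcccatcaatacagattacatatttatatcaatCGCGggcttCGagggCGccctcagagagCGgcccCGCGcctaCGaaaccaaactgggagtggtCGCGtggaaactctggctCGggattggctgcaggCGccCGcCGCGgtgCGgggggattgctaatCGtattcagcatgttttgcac
Hoxa10, start 2: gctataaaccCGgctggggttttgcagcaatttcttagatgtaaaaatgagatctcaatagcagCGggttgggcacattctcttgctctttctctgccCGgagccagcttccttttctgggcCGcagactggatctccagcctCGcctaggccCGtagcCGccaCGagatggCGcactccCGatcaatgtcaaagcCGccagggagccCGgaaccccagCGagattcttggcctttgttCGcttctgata
Hoxd9: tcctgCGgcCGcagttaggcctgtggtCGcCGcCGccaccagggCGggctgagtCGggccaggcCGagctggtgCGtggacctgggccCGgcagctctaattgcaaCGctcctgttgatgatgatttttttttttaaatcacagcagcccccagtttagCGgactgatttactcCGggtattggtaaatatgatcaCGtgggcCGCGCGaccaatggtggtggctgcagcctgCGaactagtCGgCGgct
Hoxd8: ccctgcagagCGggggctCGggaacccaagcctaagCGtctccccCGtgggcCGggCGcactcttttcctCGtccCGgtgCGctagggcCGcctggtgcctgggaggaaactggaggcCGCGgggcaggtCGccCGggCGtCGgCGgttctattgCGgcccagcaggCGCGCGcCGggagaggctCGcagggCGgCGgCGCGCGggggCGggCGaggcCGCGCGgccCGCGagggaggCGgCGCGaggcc
Hoxa7: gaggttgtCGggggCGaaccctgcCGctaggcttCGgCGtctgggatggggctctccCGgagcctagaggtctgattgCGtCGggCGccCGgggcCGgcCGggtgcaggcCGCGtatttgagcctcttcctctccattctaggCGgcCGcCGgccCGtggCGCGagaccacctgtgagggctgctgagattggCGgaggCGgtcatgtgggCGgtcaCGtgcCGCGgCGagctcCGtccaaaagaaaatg

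The windows of Hoxa10 held 21 and 14 CG dinucleotides, that of Hoxd9 held 20, that of Hoxd8 held 38 and that of Hoxa7 held 28. RefSeq promoter windows were matched for 20 members, 21 windows in all, among 33469 windows of the table. The 21 HOX windows had a median of 20 CG dinucleotides (range 3 to 39), beside 5 over all windows, and a median GC content of 60.0%, beside 51.2%. On both strands of these 250 bases, the PBX-HOX motif TGATTGAT was found in 2 HOX windows, those of Hoxa2 and Hoxd11, which is 9.52% of HOX windows beside 0.690% of all windows. The related PBX-HOX motif TGATTTAT, which is used with higher paralog numbers, was in none of the HOX windows and in 0.831% of all windows. Direct repeats of the retinoic acid receptor half-site AGGTCA with a spacing of 5 bases were in none of the HOX windows and in 0.00896% of all windows, and with a spacing of 2 bases they were in none of either. The letters TATAAA were in 4 HOX windows, among them both of Hoxa10, which is 19.0% beside 12.9% of all windows. They were counted at any position and on either strand, so a match need not be a TATA element of that start. These matches describe letters in a short window and say nothing of binding.

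Hoxa11 and Hoxc11, paralogs that in mouse take part in forming the middle segment of the limbs, were both lower in CYSP. Hoxa11 had 8.38, 9.33 and 9.01 CPM in CYSP, against 12.2, 12.2 and 10.7 CPM in CK. Hoxc11 had 2.43, 1.82 and 2.18 CPM in CYSP, against 3.22, 3.58 and 3.14 CPM in CK. Neither gene's groups overlapped. The log2 fold change was -0.39 ± 0.127 for Hoxa11, with an adjusted p of 0.00402. For Hoxc11 it was -0.62 ± 0.249, with an adjusted p of 0.0212, which became 0.0626 without CK replicate 2 and 0.0902 without CYSP replicate 2.

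Among the 9th paralogs, Hoxc9, which in mouse sets the identity of thoracic motor neurons, had 1.21, 0.878 and 2.18 CPM in CYSP, against 2.88, 3.20 and 2.11 CPM in CK. CYSP replicate 3 lay just above CK replicate 3, so the groups overlapped. Hoxc9 had a log2 fold change of -0.94 ± 0.303 and an adjusted p of 0.00407, which became 0.0524 without CYSP replicate 2. Hoxa9, known for its part in blood-forming stem cells, had 4.68, 6.08 and 8.12 CPM in CYSP, against 8.35, 7.35 and 7.85 CPM in CK. CYSP replicate 3 sat inside the CK range while the other two were under it. Hoxa9 had a log2 fold change of -0.33 ± 0.16 with an adjusted p of 0.0566, and without CYSP replicate 3 it was -0.55 with an adjusted p of 0.00471. All 3 tested members of this paralog group thus had negative fold changes, of which Hoxd9 and Hoxc9 passed the test.

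**Figure D4:**
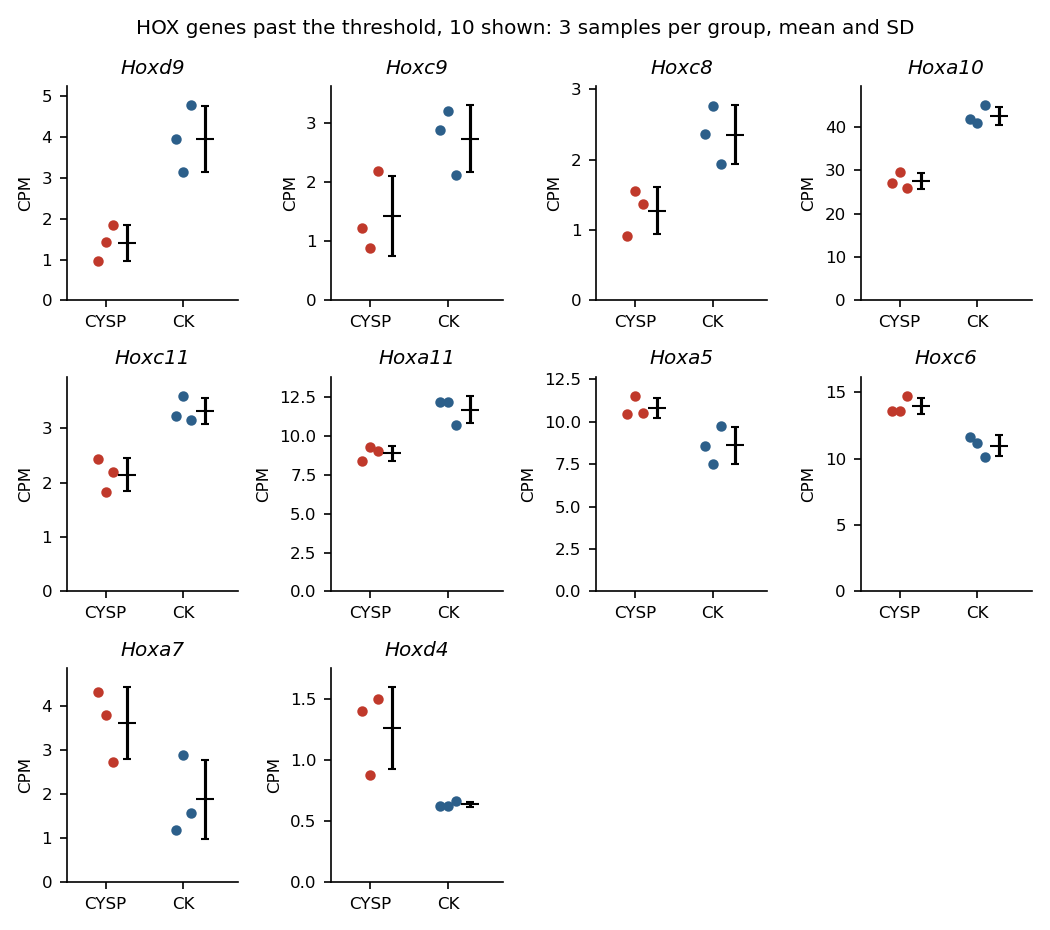
Level in CPM (axes from 0) of 10 of the 11 HOX genes past the threshold, with a point per sample, CYSP in red left of CK in blue, and the mean with SD of 3 samples beside the points, ordered by log2 fold change. The 6 genes from Hoxd9 to Hoxa11 are lower in CYSP and the 4 from Hoxa5 to Hoxd4 are higher, and Hoxc9 and Hoxa7 are the 2 in which the groups overlap.

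A group of 3 members of the middle of the clusters were higher in CYSP, from the Hoxa and Hoxc clusters. Hoxa7, a thoracic paralog in the mouse embryo, had 4.31, 3.78 and 2.73 CPM in CYSP, against 1.18, 2.89 and 1.57 CPM in CK. Only CYSP replicate 3 and CK replicate 2 crossed. Its log2 fold change was 0.96 ± 0.269, with an adjusted p of 0.00107. Hoxa5, which in mouse is needed for the airway and the cervical skeleton, had 10.4, 11.5 and 10.5 CPM in CYSP, against 8.58, 7.54 and 9.72 CPM in CK. Its groups did not overlap, and the log2 fold change was 0.33 ± 0.131, with an adjusted p of 0.0208. The call of Hoxa5 was lost without CK replicate 2 (adjusted p = 0.128), without CYSP replicate 2 (0.0768), by the DESeq2 Wald test (0.0526) and when samples were scaled by library size only (0.0854).

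Hoxc6, a thoracic and forelimb-level paralog in mouse, had 13.6, 13.6 and 14.7 CPM in CYSP, against 11.6, 11.2 and 10.1 CPM in CK. All CYSP samples lay above all CK samples. The log2 fold change on counts was 0.35 ± 0.115, with an adjusted p of 0.00525, whereas the ratio of mean FPKM gave 0.51. The transcript length that counts and FPKM together imply for Hoxc6 was 3824, 3271 and 3425 bases in CYSP, against 3892, 4544 and 4060 bases in CK. It was shorter in every CYSP sample, and only 0.651% of the genes examined shifted as much. For Hoxa10 the implied length also varied between samples, at 1809, 1703 and 1758 bases in CYSP, against 1685, 1815 and 1666 bases in CK. There the groups overlapped, and 13.5% of the genes examined shifted as much. The ratio of mean FPKM gave a log2 fold change of -0.74 for Hoxa10, beside -0.63 on counts. For Hoxa5, Hoxa9, Hoxa11 and Hoxc10 the implied length was constant across samples. In RefSeq the span of Hoxc6 overlaps those of Hoxc4 and Hoxc5, and whether counting used strand or isoforms is not stated, so reads of Hoxc6 and its overlapping neighbours may not be told apart.

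Hoxc8, which in mouse specifies thoracic vertebrae and brachial motor neurons, was the member of the middle group that fell. It had 0.911, 1.55 and 1.37 CPM in CYSP, against 2.37, 2.76 and 1.93 CPM in CK. The groups did not overlap. The log2 fold change was -0.89 ± 0.316, with an adjusted p of 0.00918, which became 0.0529 without CK replicate 2 and 0.0712 without CYSP replicate 1. The other members of this group that were tested did not pass. Hoxc5 had 1.94, 1.15 and 1.50 CPM in CYSP, against 1.97, 1.51 and 2.36 CPM in CK, a log2 fold change of -0.34. Hoxa6 had 2.00, 1.15 and 0.683 CPM in CYSP, against 0.959, 0.691 and 1.27 CPM in CK. Its log2 fold change of 0.41 rested on CYSP replicate 1, without which it was -0.09.

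Of the low-numbered members, Hoxd4, a paralog of the hindbrain and neck region in mouse, was higher in CYSP, with 1.40, 0.878 and 1.50 CPM in CYSP, against 0.621, 0.628 and 0.664 CPM in CK. The groups did not overlap, but the counts were low, from 13 to 23 per sample in CYSP and from 10 to 11 in CK. Its log2 fold change was 0.98 ± 0.414, with an adjusted p of 0.0287. That call was lost without CK replicate 1 (adjusted p = 0.0761), CK replicate 2 (0.0634), CK replicate 3 (0.0569), CYSP replicate 1 (0.0991) or CYSP replicate 3 (0.11), by the DESeq2 Wald test (0.0663) and when no filter on low counts was used (0.0539).

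Hoxc4, Hoxa3 and Hoxa4, which pattern the hindbrain, neck and pharyngeal region in mouse, were tested and not called. Hoxc4 had 4.43, 4.32 and 3.82 CPM in CYSP, against 3.33, 4.21 and 3.20 CPM in CK. The groups overlapped, and the log2 fold change was 0.23 with a 95% interval from -0.18 to 0.64. Hoxa3 had 0.911, 1.82 and 1.71 CPM in CYSP, against 1.52, 1.51 and 1.69 CPM in CK. The low CYSP replicate 1 set its sign: the log2 fold change was -0.10 with all samples and 0.17 without that replicate. Hoxa4, at 0.486 to 0.878 CPM in CYSP and 0.564 to 0.942 CPM in CK, had a log2 fold change of -0.22. In RefSeq the span of Hoxa3 overlaps those of Hoxa4, Hoxa5 and Hoxa6.

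The remaining 20 members had too few counts to be tested, with at most 11 counts in a sample, and 8 of them had none in any sample. The Hoxb cluster fell wholly in this set. Its 10 genes together had 11 counts in the 3 CYSP samples and 12 counts in the 3 CK samples. Hoxb4, with 8 counts in CYSP and 4 in CK, was the most abundant of them, Hoxb2 had 1 count in CYSP and 6 in CK, Hoxb3 had 0 in CYSP and 2 in CK, and Hoxb6 and Hoxb13 had 1 each in CYSP and 0 in CK. Hoxb1, Hoxb5, Hoxb7, Hoxb8 and Hoxb9 had 0 counts in all 6 samples, which allows up to 0.205 CPM in a sample. The summed Hoxb level was 0.145 ± 0.0641 FPKM in CYSP and 0.156 ± 0.145 FPKM in CK.

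The genes that flank the Hoxb cluster in RefSeq were also without reads. Skap1 on the Hoxb1 side, and Ttll6 and Calcoco2 on the Hoxb13 side, had 0 counts in all 6 samples. Calcoco2 encodes an autophagy receptor that most cell types express. Beyond these, Ube2z had 4274 counts in CYSP and 6852 in CK, and Snx11 had 943 in CYSP and 771 in CK. Beside the other clusters, Skap2 and Hibadh at Hoxa, Smug1 and Calcoco1 at Hoxc, and Lnpk and Mtx2 at Hoxd all had between 1579 and 4551 counts in the 6 samples together, whereas Evx1 and Evx2, the homeobox genes at the high-numbered ends of Hoxa and Hoxd, had 0. Whether the silence of Hoxb and its neighbours belongs to the cells or to the counting was not tested.

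Hoxd10, the neighbour of Hoxd9 on its other side, was also under the filter. It had 8, 7 and 6 counts in the CYSP samples, against 1, 2 and 0 counts in the CK samples. The groups did not overlap, and the ratio of CPM over the groups was 7.65, with a 95% counting interval from 2.29 to 40.1. When the filter on low counts was dropped, the log2 fold change of Hoxd10 was 2.77 with an adjusted p of 0.0104. It passes a test only through the group where it is high, so this is a description. At 0.24 ± 0.0209 FPKM in CYSP and 0.0337 ± 0.0351 FPKM in CK it stayed far under Hoxd9, which was at 0.748 ± 0.233 FPKM in CYSP and 2.22 ± 0.456 FPKM in CK.

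Other members under the filter differed little or rested on very few counts. Hoxa13, the paralog of the limb tips and the hindgut, had 26 counts in CYSP and 21 in CK, and Hoxa2 had 14 in CYSP and 12 in CK. Hoxd13 had 8 counts in CYSP and 6 in CK, Hoxd3 had 4 in each, and Hoxc13 had 2 in CYSP and 1 in CK. Hoxd1 had 3, 3 and 0 counts in the CYSP samples and none in CK. Its CYSP to CK ratio was 2.19 when CK is set to 3 counts over the group and the CYSP counts are taken as exact. When the filter was dropped Hoxd1 was not called, with an adjusted p of 0.0567 by edgeR's quasi-likelihood test. Hoxc12, Hoxd11 and Hoxd12 had 0 counts throughout. Members of the last paralog groups, 12 and 13, thus had at most 11 counts in any sample of either group.

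The authors' deposited table also holds a fold change and an adjusted p-value per gene, from a test not given in the sources used here. By the authors' deposited table, 9 HOX members had an adjusted p under 0.05, of which 7 were lower and 2 were higher in CYSP, and 8 of the 9 were also called on the counts here. The 2 higher members of the authors' deposited table were Hoxa7, with an adjusted p of 0.04, and Hoxd10, with an adjusted p of 0.0439. Hoxa5, Hoxc6 and Hoxd4 had adjusted p-values of 0.395, 0.265 and 0.184 in the authors' deposited table, where they were not called.

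Companion genes of the HOX system were listed in 8 groups by their roles. Of 180 listed genes 178 were found and 120 were tested, with 40 higher and 55 lower in CYSP. That 79.2% were called lies near the background of 76.1%, so the counts are read group by group as descriptions.

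The list of TALE homeodomain genes, which holds the PBX and MEIS cofactors of HOX proteins, was mostly lower in CYSP. Of 10 tested, 6 fell and Meis2 rose, and the median log2 fold change was -0.22. Meis1, a MEIS cofactor of HOX proteins in blood and limb, had 28.5, 30.8 and 26.8 CPM in CYSP, against 59.2, 60.04 and 68.5 CPM in CK. The groups lay far apart, and the log2 fold change was -1.12 ± 0.0666, with an adjusted p of 3.91e-26. Meis2, its close relative, went the other way, with 20.8, 21.2 and 23.3 CPM in CYSP, against 6.32, 7.03 and 6.88 CPM in CK. For Meis2 the log2 fold change was 1.69 ± 0.115, with an adjusted p of 5.7e-23. Pknox2 fell to 0.819 ± 0.298 CPM in CYSP, against 6.29 ± 0.565 CPM in CK, a log2 fold change of -2.92. Meis3, Pbx3 and Pbx2 were lower in CYSP with log2 fold changes of -0.71, -0.55 and -0.22. Pknox1, Tgif1 and Tgif2 were not called, and Pbx4 had 9 counts in CYSP and 1 in CK.

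**Figure D5:**
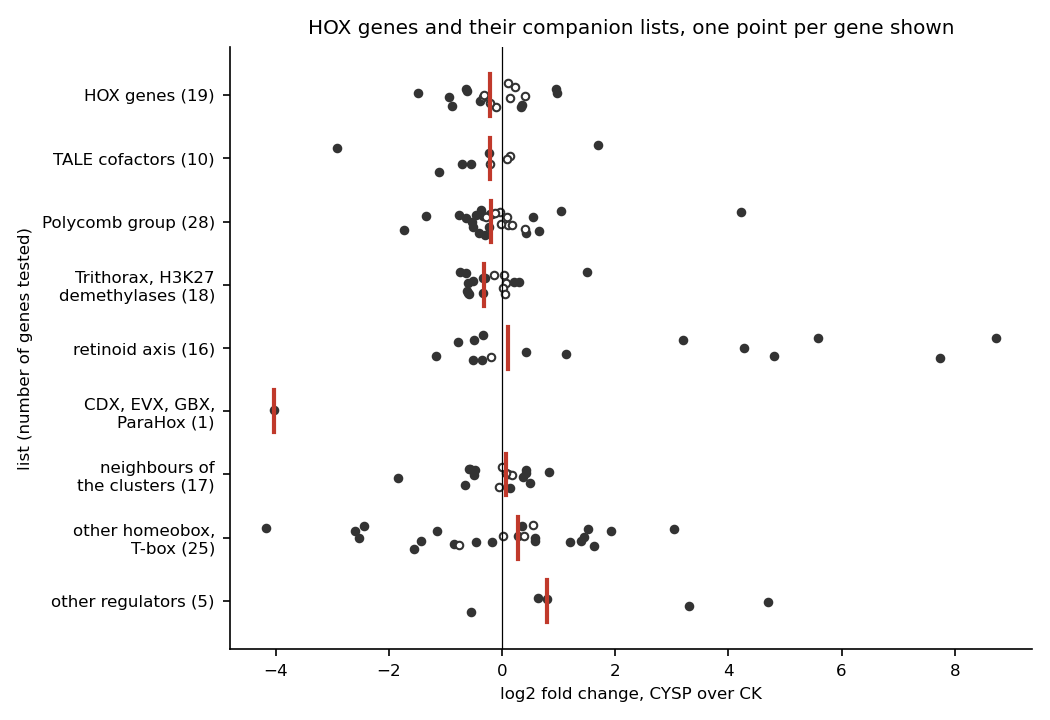
Log2 fold change of CYSP over CK for the reported tested genes of the HOX members (top) and of the 8 companion lists, filled where the adjusted p was under 0.05, with a red bar at the median of all tested genes of a list and their number in brackets. The HOX points lie between -1.50 and 0.98, whereas the retinoid list reaches 8.72, and its points for Crabp1 and Stra6 rest on 0 and 2 counts in CK.

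Polycomb group genes, which encode the repressors of unused HOX genes, were all tested: 14 of 28 were lower and 6 were higher in CYSP, with a median log2 fold change of -0.20. The largest rise was that of a chromobox subunit, a reader of the repressive histone mark. Cbx7 had 20.9 ± 1.03 CPM in CYSP and 1.11 ± 0.38 CPM in CK, a log2 fold change of 4.22. Eed, a core subunit of the enzyme complex that writes the mark, fell to 16.7 ± 0.772 CPM in CYSP, against 42.5 ± 0.949 CPM in CK. Phf19, a partner that brings that complex to its targets, fell by 1.74 on the log2 scale. Among 18 tested trithorax group genes and demethylases that remove the mark, 10 were lower and 3 were higher, with a median of -0.32. Ctcf, the insulator protein that divides active from silent parts of HOX clusters, fell by 0.74, the demethylase Kdm6a by 0.64 and the methyltransferase Kmt2b by 0.62 on the log2 scale, while Mllt3 rose by 1.50 and Men1 by 0.30. Dpy30, a core subunit of these complexes, was listed at 0 counts in every sample, and whether that belongs to the cells or to the counting was not tested.

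Genes of retinoic acid handling held the largest single fold change of the lists, and had 8 higher and 7 lower of 16 tested and a median log2 fold change of 0.11. Cyp26b1, the enzyme that degrades retinoic acid, had 363, 347 and 358 CPM in CYSP, against 0.903, 0.942 and 0.664 CPM in CK. The separation was complete, with a log2 fold change of 8.72 ± 0.0788 and an adjusted p of 1.91e-81. Dhrs3, which turns retinal back into retinol, had 143 ± 8.6 CPM in CYSP and 5.11 ± 0.758 CPM in CK, a log2 fold change of 4.81. Stra6, the cell-surface carrier for retinol, had 104 counts in CYSP and 2 in CK. Rbp4, the retinol carrier of plasma, rose by 4.28 on the log2 scale, with 184 counts in CYSP and 10 in CK. Of the receptor genes, named after their values were seen, Rarb rose by 3.20 on the log2 scale, with 154 counts in CYSP and 18 in CK, while Rara and Rarg fell by 0.49 and 0.51 on the log2 scale. Crabp1, a binding protein for retinoic acid, had 77 counts in CYSP and 0 in CK. Its CYSP to CK ratio was 28.1 when CK is set to 3 counts over the group and the CYSP counts are taken as exact. The list's median is the same with Crabp1 at that ratio. Stra6, Rbp4, Rarb and Crabp1 passed the filter only through CYSP, where they are high, so their changes are descriptions. The corepressor Nrip1 fell by 1.17 on the log2 scale.

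Homeobox genes that are upstream of the clusters or related to them (CDX, EVX, GBX, MEOX and ParaHox genes) were close to silent, with 1 of 13 tested. That gene, Meox2, a homeobox gene of muscle and vessel precursors, was at 0.197 ± 0.0701 CPM in CYSP, against 3.32 ± 0.104 CPM in CK, a log2 fold change of -4.03. It had 3, 2 and 4 counts in the CYSP samples, against 60, 51 and 56 in the CK samples. It passed the filter only through CK, where it is high, so this is a description. Its relative Meox1, under the filter, had 7, 8 and 6 counts in the CYSP samples and 0 in each CK sample. The CYSP to CK ratio of Meox1 was 7.65 when CK is set to 3 counts over the group and the CYSP counts are taken as exact. Cdx1, Cdx2 and Cdx4, which switch on HOX genes of the trunk in the embryo, had at most 2 counts in either group. Among other regulators of HOX genes, 4 of 5 tested were higher and 1 was lower. Gdf11, the secreted factor that sets the trunk-to-tail transition of HOX codes in mouse, had 241 ± 4.77 CPM in CYSP and 24.4 ± 1.46 CPM in CK, a log2 fold change of 3.30. Nr6a1, a trunk factor that opposes that transition in mouse, rose by 0.79, Gmnn by 0.64 and Zbtb16, which represses HOX genes in the mouse limb, by 4.70 on the log2 scale, the last from 104 counts in CYSP and 4 in CK. Zbtb16 passed the filter only through CYSP, where it is high, so its rise is a description. Yy1 fell by 0.54 on the log2 scale.

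Genes that neighbour the 4 clusters in RefSeq were split, with 7 higher and 6 lower of 17 tested and a median log2 fold change of 0.07. Beside the Hoxa cluster, Jazf1 fell to 2.10 ± 0.46 CPM in CYSP, against 7.59 ± 0.631 CPM in CK, a log2 fold change of -1.84. On the other side of that cluster Skap2 fell by 0.59 while Snx10 rose by 0.84 on the log2 scale. At Hoxc the log2 fold change was -0.65 for Hnrnpa1. At Hoxd, Lnpk and Mtx2 were not called, and Evx2, which lies between Lnpk and the cluster, had 0 counts.

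Positional genes outside the HOX clusters, a list of homeobox and T-box genes of mesenchyme, gave 11 higher and 10 lower of 25 tested, with a median log2 fold change of 0.27. Their fold changes reached further than those of the HOX genes. Irx3, a limb and flank homeobox gene, had 45.6 ± 1.97 CPM in CYSP and 5.51 ± 1.31 CPM in CK, a log2 fold change of 3.04. Lmx1a fell by 4.17, Eya1 by 2.60 and Dlx5, a homeobox gene of bone-forming cells and limb, by 2.53 on the log2 scale. Lmx1a had 13 counts in CYSP and 264 in CK and passed the filter only through CK, so its fall is a description. The hindlimb gene Pitx1 had 4.79 ± 0.715 CPM in CYSP and 13.01 ± 2.76 CPM in CK, a log2 fold change of -1.43, and was named, like the T-box genes that follow, after its value was seen. The hindlimb gene Tbx4 had 8 counts in CYSP and 2 in CK, and the forelimb gene Tbx5 had 8 in CYSP and 11 in CK.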

How the data were processed

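Libraries were made from Trizol-extracted RNA after selection of polyadenylated transcripts, per the labels' protocols. The submitters' processing notes name HISAT2, RSEM, fastp 0.18.0 and StringTie 1.3.1, with no role for any. The genome build, annotation, counting tool and use of strand were not given in the sources used here. The deposited table holds raw counts per gene and sample, FPKM per sample, and the authors' mean FPKM, log2 fold change, p-value and adjusted p-value, per the file headers.

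Samples were grouped by title. The deposited counts were tested with edgeR 4.0.16 in R 4.3.3 (filterByExpr, TMM scaling, robust glmQLFit, glmQLFTest), which kept 12623 genes, with Benjamini-Hochberg adjustment over all of them and a threshold of 0.05. Another 6878 genes had no count and 3590 were under the filter. The biological coefficient of variation was 0.0393. The standard error of a fold change was computed from it and its F statistic. CPM are TMM-scaled, and means are given with SD over 3 samples. FPKM were used as deposited to compare levels between genes. The implied transcript length is the count divided by FPKM and by the library total. Ratios were tested by exact permutation with SciPy 1.17.1. Alternatives were other scalings, no filter and a stricter one, DESeq2 1.42.0, limma 3.58.1 (voom, and trend on FPKM), an assumed coefficient of variation, a fold threshold, the replicate number as a block and each sample left out. The procedure was tested on simulated data. Promoter sequences are RefSeq's (GRCr8), which also gave gene order and overlaps.

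Each HOX member that was called or had a mean of at least 1 CPM in a group is described with its value in every sample, and the others by range and count. From each companion list up to 4 called genes were named, those of largest absolute change and a mean of 1 CPM or more. So were up to 2 called genes of the rarer direction. Members and lists were chosen with earlier results of these data known. Where a companion symbol stood on several identifiers, that with most counts was taken. Of the 180 listed genes, 2 are not analysed here. Some genes that these rules take are not reported here, though the counts and medians of the text include them.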

Additional observations from a re-analysis of the deposited data

How the results depend on the processing

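In CYSP 4 HOX members were higher and 7 lower. Leaving out a replicate gave 2 to 3 higher and 5 to 8 lower. The count of higher members was 2 with DESeq2's Wald test, with a filter of 50 counts in 3 samples, with limma-trend on log2(FPKM + 1) and on log2(FPKM + 0.1), and with an assumed coefficient of variation of 0.2. With a threshold of 1 on the absolute log2 fold change, 0 were higher and 2 lower. The stricter filter left 10 members to test, and 4 of them were lower. For Hoxa the count of higher members (2) was 1 with DESeq2's Wald test, the stricter filter, both limma-trend fits, the assumed variation and scaling by library size only. It was 0 with the fold threshold, which left 1 lower, and the counts were 1 to 2 higher and 2 to 4 lower without a replicate. For Hoxc the higher count was 0 with the assumed variation and with the fold threshold, and 1 throughout without a replicate, and the lower count was 1 with the stricter filter, 0 with the fold threshold and 1 to 3 without a replicate. For Hoxd, where 1 was higher, the count was 0 with DESeq2's Wald test, the stricter filter, both limma-trend fits and the fold threshold, and 0 to 1 without a replicate. Over all genes the assumed variation gave 3102 higher and 2801 lower and the fold threshold 1917 and 1598. The companion lists gave 26 and 30, and 21 and 15. Apart from fewer members tested or a higher bar, the cause was not tested.

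Without CYSP replicate 1, Hoxa3 and Hoxa6 changed sign, to log2 fold changes of 0.17 and -0.0873. Over the replicates left out their values ran from -0.276 to 0.17 and from -0.0873 to 0.705. Samples with the same number did not deviate together from their group means (r of -0.00, 0.02 and -0.01). Such deviations may be mostly counting noise, so whether these samples share more than a number cannot be told from them. With the replicate block, 3 HOX members were higher and 7 lower, Hoxd had 0 higher since Hoxd4 had an adjusted p of 0.057 in edgeR's quasi-likelihood test, and no other member's call changed. The assumed variation ended the calls of Hoxa5, Hoxa11, Hoxc6 and Hoxc11, and Hoxa9 was called in 8 of its 19 alternatives. Other scalings moved the median of all genes by less than 0.1 on the log2 scale. No HOX symbol stands on several identifiers, so that alternative was not run. Without the filter Hoxd kept a count of 1 higher, from Hoxd10 in place of Hoxd4. No comparison at another depth was made.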
